A study of Mus musculus with 6 samples.

Results

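The transcripts described here are those of the dipeptidyl peptidase family and of adenosine deaminase, taken as 10 genes: Dpp4, Fap, Dpp8, Dpp9, Dpp7, Prep, Dpp3, Dpp6, Dpp10 and Ada. They were taken by gene symbol, with earlier results of these data known, as every probe set (a group of array probes read as 1 value) that the platform annotation assigns to a single one of these genes. All 10 genes were found, on 22 of 45037 probe sets. Expression was measured on Affymetrix arrays in E14TG2a cells, a single mouse embryonic stem (ES) cell line grown on gelatin, and values are on the log2 scale after the authors' RMA processing. In 3 samples, here called undifferentiated, cells were kept with leukaemia inhibitory factor (LIF, 1000 units per ml), which holds ES cells in the pluripotent state, and sorted as negative for the surface glycoprotein 5T4. In the other 3, called differentiating, cells had spent 3 days without LIF and were sorted as 5T4-positive, so that loss of LIF and the sort cannot be told apart. The medium contained added nucleosides, adenosine among them. The sources used here do not state whether replicates were separate cultures, so p-values may reflect technical spread only.

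Dipeptidyl peptidases remove a pair of amino acids from the N-terminus of peptides, and most members prefer proline or alanine next to the cleavage site. DPP4, also called CD26, is a serine peptidase anchored in the plasma membrane that truncates chemokines such as CXCL12, incretin hormones and neuropeptides. FAP is its closest relative at the cell surface, DPP8 and DPP9 act in the cytosol, and DPP7 acts in lysosomes and other vesicles. PREP is a cytosolic endopeptidase that cuts after proline, whereas DPP3 is an unrelated zinc peptidase. DPP6 and DPP10 have the fold of the family without peptidase activity and accompany Kv4 potassium channels. Adenosine deaminase, encoded by Ada, converts adenosine to inosine, and in humans it binds CD26 on the cell surface.

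Both groups carried the transcripts of ES cells. The 8 ES cell marker genes examined had mean signals over the 6 arrays at or above the 96.3rd percentile of all probe sets. For 7 of the 8, differentiating arrays lay wholly below undifferentiated arrays, whereas 23.5% of all genes were apart in either direction. Of the 7, Sox2 and Pou5f1 passed at an adjusted p under 0.1 in limma, as did 2.25% of all genes in either direction. Zfp42 fell most without passing (log2 fold change -2.64, limma adjusted p = 0.106). It was 12.10, 12.35 and 12.60 in undifferentiated and 11.01, 9.43 and 8.69 in differentiating replicates. Tpbg, which encodes 5T4, had values of 6.71, 7.52 and 7.97 in differentiating replicates 1 to 3, and of 5.94, 6.76 and 5.68 in the undifferentiated replicates. Its difference missed the threshold (log2 fold change 1.27, limma adjusted p = 0.22), and undifferentiated replicate 2 lay above differentiating replicate 1. Array medians were between 5.54 and 5.65. The lower quartile of differentiating replicate 1 was 4.26, above the 4.07 to 4.10 of the other arrays, so that it stood apart among dim probe sets. The number of arrays, 3 per group, limits the precision. No detection calls accompany the values, so a low signal cannot be distinguished from background.

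The sequences upstream of Dpp4 and Ada are shown because these genes had the largest decreases among members at their brightest probe sets. They are the 250 bases before the annotated transcription start in RefSeq, build GRCm38.p6, both read from the minus strand at chr2:62412232-62412481 (Dpp4) and chr2:163750240-163750489 (Ada). Capitals mark matches, on either strand, to any of 3 motifs. The first is TTCNNNGAA, the core recognised by STAT factors, which act downstream of LIF. The second is the GC box, GGGCGG. The third is the TATA box, TATAAA.
Dpp4: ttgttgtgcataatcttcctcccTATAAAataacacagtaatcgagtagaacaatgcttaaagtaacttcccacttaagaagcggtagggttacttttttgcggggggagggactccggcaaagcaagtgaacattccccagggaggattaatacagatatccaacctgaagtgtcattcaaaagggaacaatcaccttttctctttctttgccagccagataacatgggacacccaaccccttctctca
Ada: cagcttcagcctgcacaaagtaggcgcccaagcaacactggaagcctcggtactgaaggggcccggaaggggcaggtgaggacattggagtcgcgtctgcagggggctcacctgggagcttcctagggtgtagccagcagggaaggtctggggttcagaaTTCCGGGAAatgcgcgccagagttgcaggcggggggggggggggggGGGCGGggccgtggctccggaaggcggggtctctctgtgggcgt
The Ada stretch held a STAT core from 90 to 82 bases before the start and a GC box from 44 to 39 bases before it. The Dpp4 stretch held neither, and its TATAAA lay 227 to 222 bases before the start, with a G and C content of 43.6% against 67.2% for Ada and a median of 52.4% over all promoters. Of the 8 members with a promoter in the table (11 promoters in all), Ada alone had the STAT core. That is 1 of the 11 member promoters, near the 7.02% of all 32851 promoters that contain it, so it does not set the members apart. The GC box was present in 8 of the 11 member promoters, against 32.7% of all promoters, and the TATA box in 2, those of Dpp4 and Dpp6, against 12.4%. Fap and Prep have no entry in the table. A match of letters does not show that a factor binds there.

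Dpp4 fell in differentiating cells. At its brightest probe set (1416697_at) it was 7.30, 7.89 and 8.71 in undifferentiated replicates 1 to 3 and 5.71, 5.21 and 5.12 in the differentiating replicates. The groups were separated by 1.59 log2 units, more than the range of values within either group. The decrease was 6.15-fold (log2 fold change -2.62, SE 0.35, 95% interval -3.46 to -1.78, limma adjusted p = 0.0531). A second probe set, 1459973_x_at, was at 4.52, 5.31 and 6.26 in undifferentiated and at 3.32, 3.22 and 3.13 in differentiating replicates. It was also called lower (log2 fold change -2.14, SE 0.40, limma adjusted p = 0.0903), a call that was kept without undifferentiated replicate 1 and lost without any other single array (adjusted p from 0.102 to 0.362). Its differentiating values lie close to the bottom of the array's range, and the suffix _x_ denotes probes that can match other transcripts.

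The remaining Dpp4 probe sets moved less. At 1438279_at the values were 5.58, 6.21 and 6.62 in undifferentiated and 5.55, 5.17 and 5.31 in differentiating replicates, so that the groups were separated by 0.028 log2 units. The log2 fold change of -0.79 (95% interval -1.42 to -0.17) did not pass in limma (adjusted p = 0.255), although it was called without undifferentiated replicate 1 (-1.07, adjusted p = 0.0817) and with array weights (-1.13, adjusted p = 0.0112). Probe set 1441342_at lay between 3.40 and 3.81 on all arrays, at the 11.3rd percentile of mean signal, with overlapping groups (log2 fold change -0.10, limma adjusted p = 0.795). Undifferentiated replicate 3 had the highest value at all 4 Dpp4 probe sets, and differentiating replicate 1 had the highest value of its group at all 4. Averaged over these probe sets the log2 fold change was -1.41 (limma adjusted p = 0.0704, from a separate fit of gene means adjusted over genes). The call at the brightest probe set was lost without differentiating replicate 2 (limma adjusted p = 0.29), differentiating replicate 3 (adjusted p = 0.24) or undifferentiated replicate 3 (adjusted p = 0.167), with a log2 fold change of -2.25 or below each time.

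**Figure D1:**
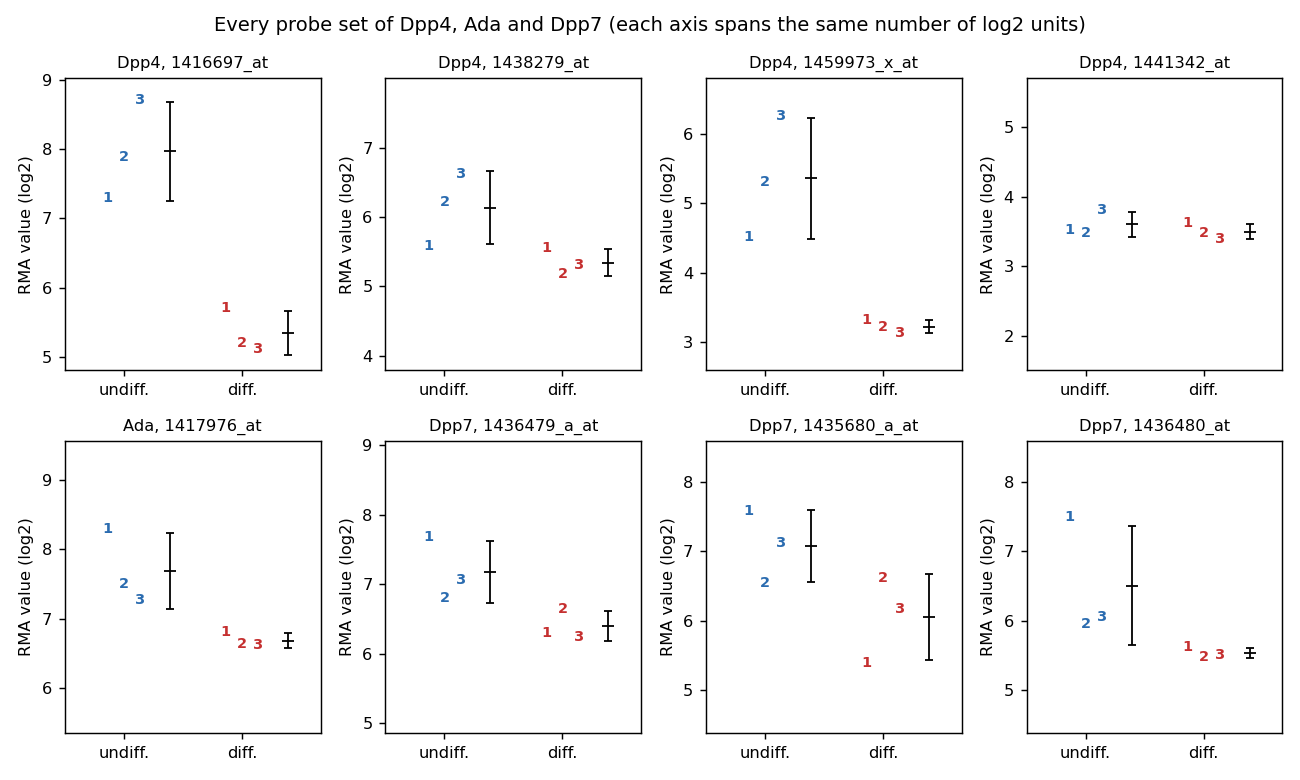
RMA values (log2, vertical axis) at every probe set of Dpp4, Ada and Dpp7, undifferentiated arrays in blue and differentiating arrays in red. Digits are replicate numbers, and black bars are the mean and SD of 3 arrays. At 1416697_at the Dpp4 values do not come closer than 1.59 units, whereas at 1441342_at they overlap, and undifferentiated replicate 1 is the highest array for Ada and for every Dpp7 probe set.

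Fap, the surface relative of Dpp4, was at the floor of the arrays. It was 3.46, 3.38 and 3.42 in undifferentiated and 3.47, 3.50 and 3.42 in differentiating replicates, at the 8.76th percentile of mean signal. The groups overlapped, and the log2 fold change was 0.041 (95% interval -0.20 to 0.28, limma adjusted p = 0.902). Values of Fap this low cannot be told from background. Dpp4 and Fap were among the 3 pairs of related genes tested, but the difference between their changes was not interpreted.

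Ada had the next largest change at the brightest probe set, but did not pass the test. Its single probe set (1417976_at) read 8.30, 7.50 and 7.27 in undifferentiated and 6.81, 6.63 and 6.62 in differentiating replicates. Every differentiating array lay below every undifferentiated array, with a gap of 0.46 log2 units. The log2 fold change was -1.0, or 2.00-fold lower (SE 0.26, 95% interval -1.62 to -0.38, unadjusted p = 0.00651, limma adjusted p = 0.166). Of the decreases with 1 array left out, the smallest was that without undifferentiated replicate 1 (-0.70, limma adjusted p = 0.106). Among the undifferentiated arrays, replicate 1 was highest for Ada and lowest for Dpp4 at its brightest probe set, and replicate 3 was the reverse.

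Dpp7, the vesicular member, showed a pattern similar to Ada. At 1436479_a_at it was 7.67, 6.81 and 7.06 in undifferentiated and 6.30, 6.65 and 6.25 in differentiating replicates, without overlap. The log2 fold change was -0.78 (95% interval -1.35 to -0.21, limma adjusted p = 0.224). At 1436480_at the groups were also apart, with 7.49, 5.95 and 6.06 against 5.62, 5.48 and 5.51, and much of the log2 fold change of -0.97 came from undifferentiated replicate 1, without which it was -0.47. At 1435680_a_at, differentiating replicate 2 (6.61) lay above undifferentiated replicate 2 (6.55), and the log2 fold change was -1.02 (limma adjusted p = 0.288). None of the 3 Dpp7 probe sets passed.

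The cytosolic serine peptidases did not pass in either direction. For Dpp8, the brightest probe set (1431064_at) was 7.46, 8.02 and 8.01 in undifferentiated and 7.86, 8.07 and 8.15 in differentiating replicates, and undifferentiated replicate 1 stood lowest. Its log2 fold change was 0.19 (95% interval -0.24 to 0.63), and its 3 other probe sets ranged from -0.078 to 0.46 (adjusted p from 0.542 to 0.921 in limma). Without undifferentiated replicate 1 the change at the brightest probe set was 0.0092, and that at 1428697_at fell from 0.46 to 0.12. Dpp9 was 7.89, 8.06 and 7.96 in undifferentiated and 7.69, 7.85 and 7.92 in differentiating replicates (log2 fold change -0.15, 95% interval -0.43 to 0.13). Within arrays, the change of Dpp8 exceeded that of Dpp9 by 0.35 log2 units, and by 0.20 without undifferentiated replicate 1. An exact permutation test of 3 against 3 arrays gave a two-sided p of 0.1, the smallest it can give, and 0.1 after adjustment over the 3 pairs of related genes planned; the other pairs each hold a gene too dim for such a difference to be read. Prep was 9.89, 9.53 and 9.40 in undifferentiated and 9.72, 9.59 and 9.54 in differentiating replicates, a log2 fold change of 0.012 (95% interval -0.35 to 0.38). For Dpp8, Dpp9 and Prep the intervals at the brightest probe sets reach no further than 0.63 log2 units from 0. At the Dpp8 probe set 1428697_at, however, the 95% interval ran from -0.21 to 1.13.

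The zinc peptidase gene Dpp3 was bright and steady, with 10.42, 10.18 and 10.26 in undifferentiated and 10.19, 10.19 and 10.11 in differentiating replicates. The log2 fold change was -0.12 (95% interval -0.39 to 0.15, limma adjusted p = 0.701), and that of its dimmer probe set 0.14 (adjusted p = 0.773). Its sign at the gene level was not settled, since the mean of both probe sets gave 0.0096.

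Dpp6, an inactive member, was the one gene of the family with every differentiating array above every undifferentiated array at its brightest probe set. At 1451394_at it was 4.96, 5.01 and 4.78 in undifferentiated and 5.58, 5.26 and 5.09 in differentiating replicates. The log2 fold change was 0.40 (95% interval 0.024 to 0.77) and did not pass in limma (adjusted p = 0.335). Without differentiating replicate 1, whose lower quartile stood apart, it was 0.26. The dimmer probe set 1439748_at gave 3.81, 3.87 and 4.03 against 4.33, 4.29 and 4.05, also without overlap (log2 fold change 0.32, adjusted p = 0.341). Dpp10, its relative, was between 3.08 and 3.84 on all arrays at both probe sets, with overlapping groups and log2 fold changes of 0.036 and -0.022, too dim to be told from background.

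**Figure D2:**
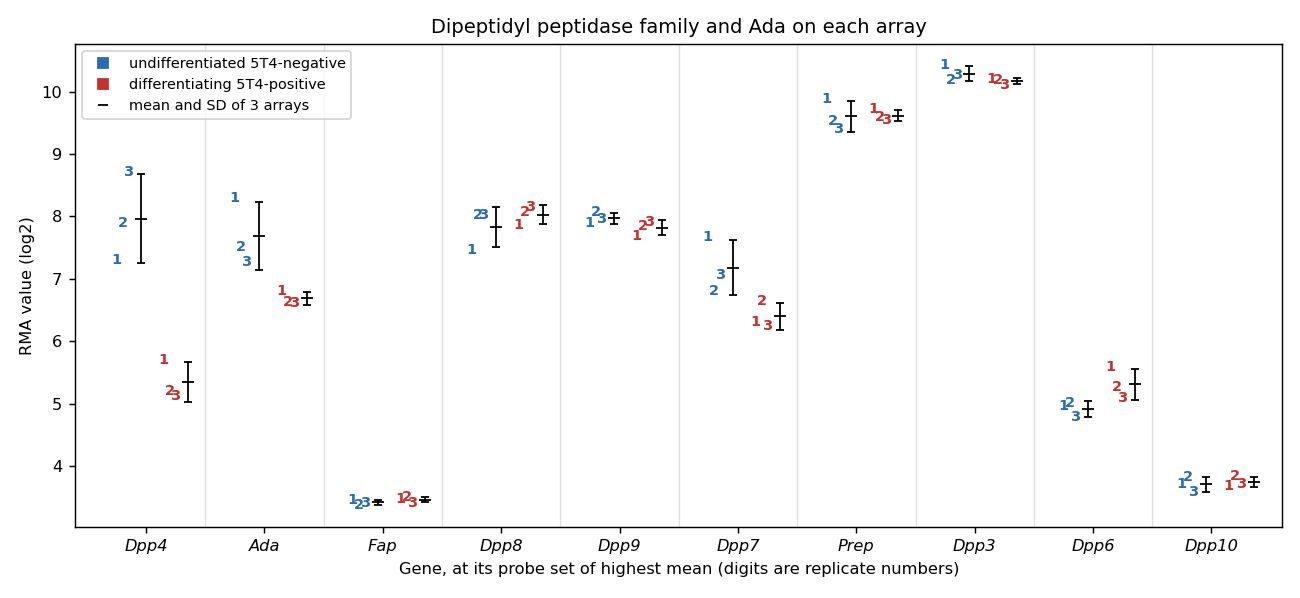
RMA values (log2, vertical axis) of the 10 genes at their probe sets of highest mean, with undifferentiated arrays in blue and differentiating arrays in red. Digits are replicate numbers, and black bars are the mean and SD of 3 arrays; heights of different probe sets do not compare transcript amounts. Dpp4, Ada and Dpp7 have red values wholly below blue values, Dpp6 has them above, and the other 6 genes overlap.

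Over all 22 member probe sets, 2 were called lower (adjusted p under 0.1 with a log2 change of 1 or more), and both belong to Dpp4. Of all probe sets tested, 0.613% were called lower and 0.941% were called in either direction. At the brightest probe sets 1 of the 10 genes was called, against 1.39% of 18193 genes. An unadjusted p under 0.05 was reached by 9 of the 22 probe sets (40.9%), against 13.7% of all. Values of the 2 groups were wholly apart at 9 of the 22 probe sets, against 20.3% of all. Of these 9, 7 were lower, where 10.3% of all probe sets are apart and lower (3 of Dpp4, 2 of Dpp7, and those of Ada and Dpp8, where 1445705_x_at differed by 0.078 near the floor), and 2 were higher, both of Dpp6, where 10% of all are apart and higher. Probe sets of a gene share its transcript and are not independent, and counted by gene the share was 4 of 10 against 23.5%. The median log2 fold change over the 22 probe sets was -0.050, and over all probe sets it was 0.031. The number of called member probe sets ranged from 0 to 3 when any single array was left out.

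**Figure D3:**
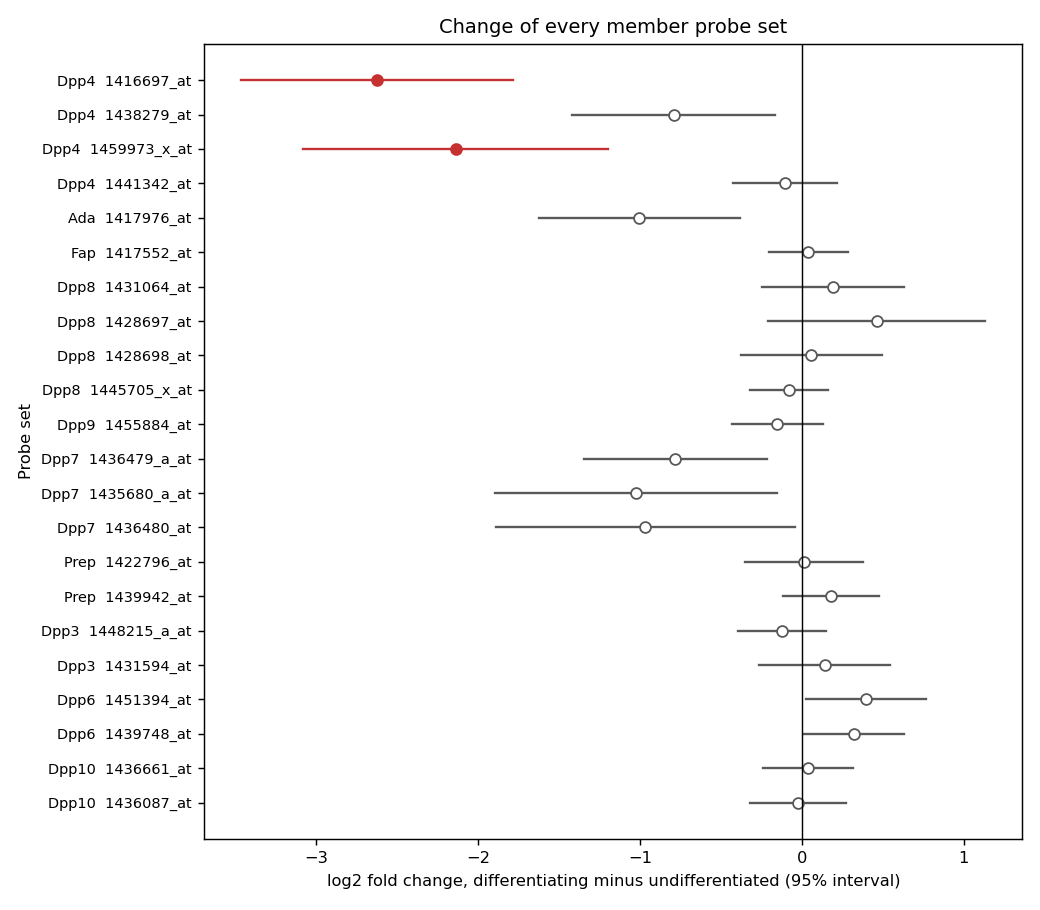
Change on the log2 scale (horizontal axis, differentiating minus undifferentiated) for each of the 22 probe sets, with its 95% interval from limma. Filled red points are the 2 called probe sets, both of Dpp4; the interval lies wholly below 0 for all 3 Dpp7 probe sets and for Ada, and wholly above 0 for both Dpp6 probe sets, though none of these passed after adjustment.

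Peptides that CD26 truncates were examined through 18 genes, all measured. Higher values passed for 2 of them, no lower value passed, and 16 genes missed the threshold. The median log2 fold change of the 18 genes was 0.15, against 0.021 over all genes. Of the 18, 4 lay under the 20th percentile of mean signal, and differentiating replicate 1 stood apart among dim probe sets. The median is therefore not read as a rise of these genes as a group. Over all genes, 2.25% passed in either direction. The chemokine genes Cxcl10 (log2 fold change 2.80, limma adjusted p = 0.0682) and Cxcl12 (1.76, adjusted p = 0.0846) rose while Dpp4 fell. Cxcl10 was 8.83, 9.02 and 9.00 in differentiating and 5.64, 7.27 and 5.55 in undifferentiated replicates, so that replicate 2 stood out among the latter. Cxcr4, the receptor of CXCL12 and a partner of CD26, was dim in both groups (log2 fold change 0.043, adjusted p = 0.943), and none of the 9 measured partners of CD26 passed. Those with the largest changes were Cav1 (0.41, adjusted p = 0.869), which encodes caveolin, and Bcl10 (0.35, adjusted p = 0.283), an adaptor of lymphocyte signalling. Cav1 varied widely within both groups, at 8.11, 5.54 and 6.68 in differentiating and 5.32, 7.83 and 5.95 in undifferentiated replicates.

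Of 19 measured genes of other peptidases, not all of them proline-specific or at the surface, Lap3 was lower and 18 did not pass. Lap3, a leucine aminopeptidase of the cytosol, was 12.08, 12.04 and 12.29 in undifferentiated and 11.38, 11.10 and 11.03 in differentiating replicates. This is a log2 fold change of -0.97 (SE 0.14, limma adjusted p = 0.0592), under the threshold of 1 needed to be called. The median of this list was 0.029.

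Of 15 measured genes that handle adenosine beside Ada, Slc29a1 was lower and 14 did not pass (median log2 fold change -0.018). Slc29a1, which encodes the equilibrative nucleoside transporter ENT1, was 10.40, 9.81 and 10.61 in undifferentiated and 9.13, 8.50 and 7.89 in differentiating replicates. The decrease was 3.40-fold (log2 fold change -1.77, SE 0.34, limma adjusted p = 0.095). The call was lost without differentiating replicate 2 (adjusted p = 0.368), differentiating replicate 3 (adjusted p = 0.291), undifferentiated replicate 1 (adjusted p = 0.13) or undifferentiated replicate 3 (adjusted p = 0.346), or after a second quantile normalization (adjusted p = 0.119). Lap3, Cxcl10 and Cxcl12 no longer passed without replicate 2 or 3 of the differentiating cells or replicate 3 of the undifferentiated cells (adjusted p from 0.248 to 0.314). Nor did Cxcl10 without differentiating replicate 1 (adjusted p = 0.108) or Cxcl12 without undifferentiated replicate 1 (adjusted p = 0.102).

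The lists of proteins known to work with the other members held no gene that passed. For the Kv4 channel complex (7 genes, median log2 fold change 0.13), the largest changes were those of Kcnip3 (0.37, adjusted p = 0.27) and Kcnip2 (0.20, adjusted p = 0.714), both channel-interacting proteins. KEAP1, which DPP3 binds, holds back the antioxidant factor NRF2, and among 11 genes of this pathway (median -0.080) Sqstm1 (0.62, adjusted p = 0.191), an autophagy receptor, and the NRF2 target Nqo1 (-0.53, adjusted p = 0.357) moved most. DPP8 and DPP9 restrain the NLRP1 inflammasome, of which 5 of 7 genes were measured (median 0.041). Nlrp1a and Nlrp1b, the genes of NLRP1 itself, were not measured, and Casp1 was at the 5.10th percentile of mean signal. Of the 5, the adaptor Pycard (-0.82, adjusted p = 0.282) and the cytokine Il18 (0.65, adjusted p = 0.204) moved most.

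**Figure D4:**
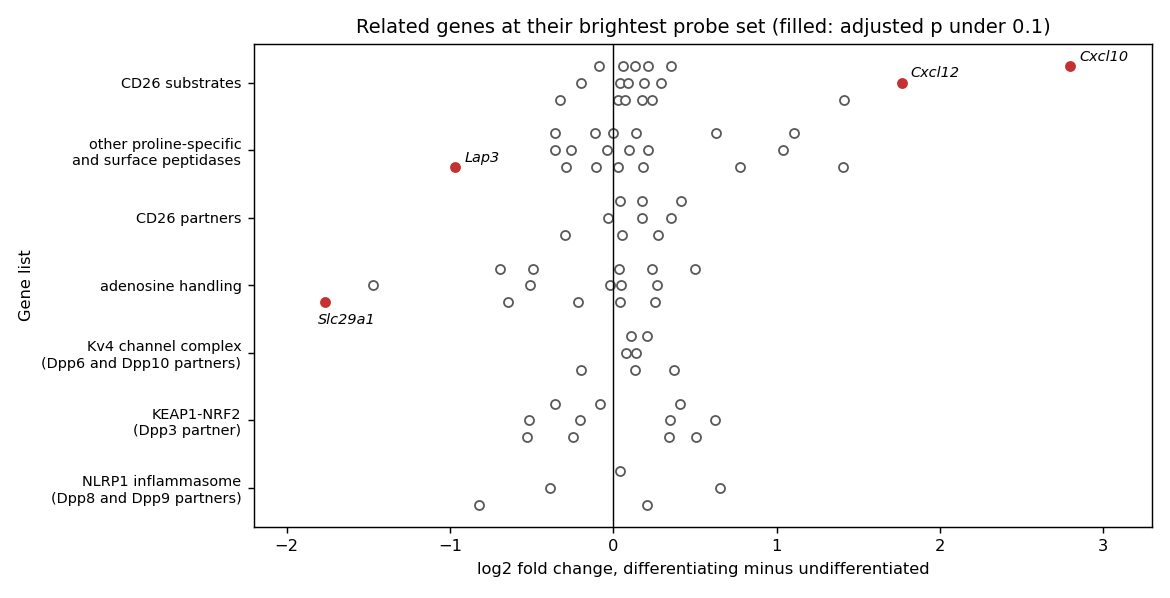
Change on the log2 scale (horizontal axis, differentiating minus undifferentiated) for the measured genes of 7 related lists (vertical axis), each drawn as a point at its brightest probe set and spread vertically for legibility. Filled red points had an adjusted p under 0.1. Cxcl10 and Cxcl12 lie to the right, Lap3 and Slc29a1 to the left.

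Markers of other cell types were examined because CD26 marks T cells and FAP marks activated fibroblasts. None of 10 fibroblast markers, 6 markers of T cells and blood or 10 of visceral endoderm passed in limma. Most were nevertheless higher in differentiating cells: 8 of 10, 5 of 6 and 8 of 10. The median log2 fold change of the fibroblast markers was 0.24, against 0.021 over all genes. Dcn (0.66), Pdgfra (0.53), Postn (0.43) and the dim Lum (0.22) were higher without overlap. This is 4 of 10 apart, against 23.5% of all genes in either direction. Summed on the linear scale, fibroblast markers ranged from 602 to 1241 in differentiating and from 452 to 850 in undifferentiated arrays, and those of T cells and blood from 233 to 321 and from 213 to 254. Visceral endoderm markers ranged from 430 to 633 and from 394 to 437, and Cubn, a receptor of this tissue, was 7.17 and 7.63 in differentiating replicates 2 and 3 against 4.75 in replicate 1. Of 7 trophoblast markers 1 passed, Tfap2c, which ES cells also express (log2 fold change -2.84, limma adjusted p = 0.0818). The 7 summed to between 316 and 481 in differentiating and between 904 and 1106 in undifferentiated arrays. Tfap2c was the brightest of them in undifferentiated replicates (9.70, 9.10 and 9.36), so the sum mainly follows this gene. The 6 others did not pass, with log2 fold changes from -0.48 (Krt7) to 0.14 (Eomes). Ptprc, which defines blood cells, was at the 10.4th percentile of mean signal. ES cell markers summed to between 26726 and 34319 in differentiating and between 45206 and 56046 in undifferentiated arrays, and they therefore moved in the same direction as Dpp4. Their part in the Dpp4 result was not tested, and on sorted bulk cells fewer cells with a transcript and less transcript per cell cannot be told apart.

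The genes whose brightest probe sets followed Dpp4 most closely over the 6 arrays were Fiz1 (Pearson r = 0.998), Spry4 (0.997), Hmces (0.995), Ciao1 (0.994) and Rbm28 (0.994). The arrays form the 2 groups that Dpp4 separates, so these correlations describe the group difference first. Spry4, an inhibitor of ERK signalling, was 7.93, 8.23 and 8.88 in undifferentiated and 7.08, 6.72 and 6.61 in differentiating replicates, and Hmces, a DNA repair gene, fell by 1.42 on the log2 scale (limma adjusted p = 0.0428). Fiz1 (log2 fold change -0.72, limma adjusted p = 0.108), Rbm28 (-0.42, adjusted p = 0.16) and Ciao1 (-0.19, adjusted p = 0.5) did not pass. With each group's mean taken off, the closest were Tmem131 (r = 0.999), 4930414N06Rik (0.999), Atad5 (0.999), Tefm (0.998) and Rbsn (0.996), all described over 6 arrays. They were picked as the highest of 18193 genes, so the size of r is not a test of a link. 4930414N06Rik lay between 3.29 and 3.86, at the 13.2nd percentile of mean signal, too dim to be told from background. Among the other members, r with Dpp4 over the 6 arrays ran from -0.73 for Dpp6 to 0.67 for Ada and 0.66 for Dpp7, and 13.0% and 13.6% of all genes had a higher r than Ada and Dpp7. With the group means taken off, r was -0.75 for Ada and -0.55 for Dpp7.

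**Figure D5:**
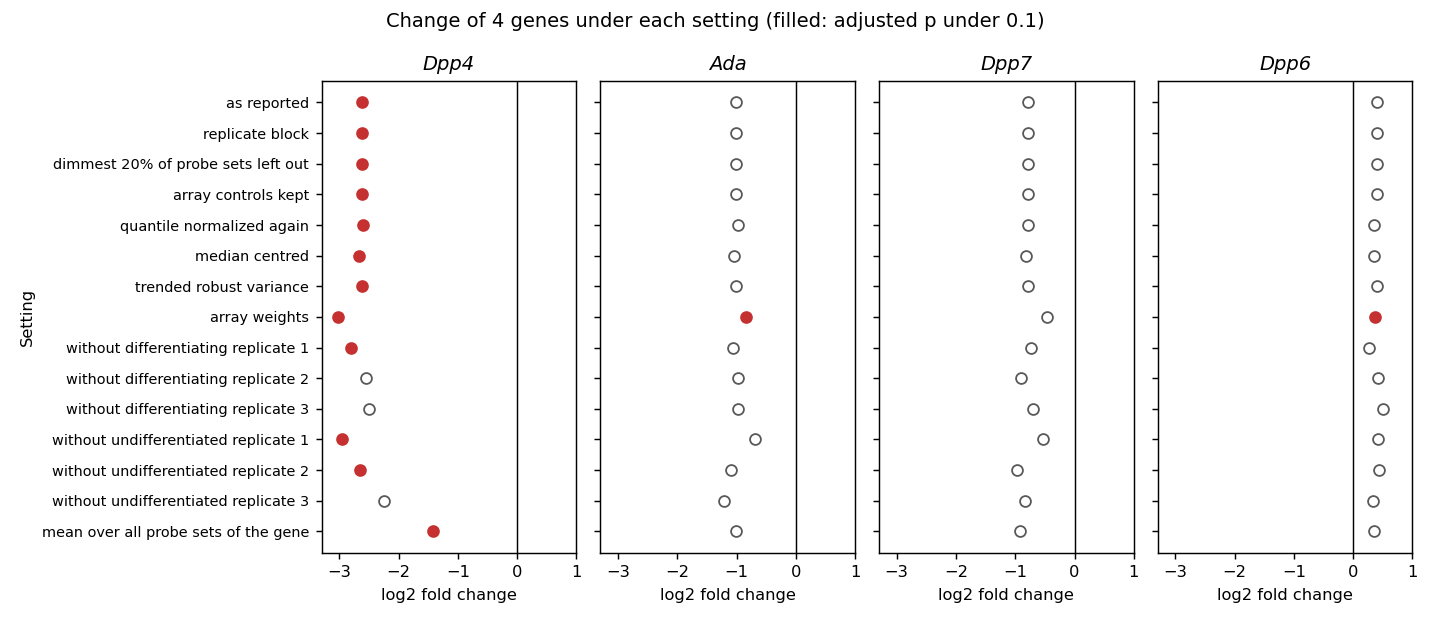
Log2 fold change (horizontal axis) of Dpp4, Ada, Dpp7 and Dpp6 as reported and under each alternative; filled red points have an adjusted p under 0.1 in limma. Dpp4 stays left of 0 throughout and loses its call without replicate 2 or 3 of the differentiating cells or replicate 3 of the undifferentiated cells, whereas Ada and Dpp6 pass with array weights only.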

How the data were processed

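Affymetrix mouse arrays were processed by the authors with RMA in the affy library (version not stated here). They deposited log2 values per probe set and array, and these were used as deposited. The table has 45101 probe sets, of which 64 are array controls and were dropped. Of the 45037 tested, 34945 had 1 symbol, 932 several and 9160 none, and looking symbols up by gene ID in RefSeq (GRCm38.p6) changed 0. A gene is given at its probe set of highest mean.

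Groups were compared with limma 3.58.1 in R 4.3.3 (prior degrees of freedom 2.93), with Benjamini-Hochberg adjustment over all probe sets. Where the probe sets of a gene were averaged, the fit and the adjustment were over genes with a symbol. Called means an adjusted p under 0.1 with a log2 change of 1 or more either way, after the study's methods, and passed means the former alone. The code was tested on simulated data. The members and gene lists were chosen with earlier results of these data known. Named beside the members are genes of the related lists that passed, or 2 of largest change where none did, Tpbg, Cxcl12, Cxcr4, and the 5 genes closest to Dpp4 by each correlation. Marker genes of other cell types and the genes of the closing section were named after their values were seen. Promoters and motifs are from RefSeq, GRCm38.p6, over 250 bases before each start. Protein sequences were not used here.

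Alternatives were the replicate block, the dimmest 20% of probe sets left out, array controls kept, second quantile normalization, median centring, trended robust variance, array weights, single arrays left out, other thresholds and other ways to combine probe sets.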

Additional observations from a re-analysis of the deposited data

How the results depend on the processing

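The decrease of Dpp4 at its brightest probe set kept its direction under every alternative listed in the methods. At the threshold of 0.1 it lost its call only when single arrays were left out, with log2 fold changes from -2.95 to -2.25. Called member probe sets, 2 as reported, numbered 1 with the replicate number as a block and 1 when genes were counted at the brightest probe set. There were 0 at an adjusted p under 0.05 in limma, where 9 had an unadjusted p under 0.05. They ranged from 0 to 3 when single arrays were left out, with 0 without replicate 2 or 3 of the differentiating cells or replicate 3 of the undifferentiated cells, where 5, 6 and 6 had an unadjusted p under 0.05. They were 1 without differentiating replicate 1 or undifferentiated replicate 2. With array weights 3 member probe sets were called, all of Dpp4, and Ada passed at -0.83 (limma adjusted p = 0.0215; 0.0215 to 0.474 over all alternatives) and Dpp6 at 0.36 (adjusted p = 0.0873; 0.0873 to 0.642). Under these weights 5 of the 22 member probe sets passed, beside 7174 of all 45037, whereas 720 of all passed as reported. A pass of Ada or Dpp6 in this setting therefore does not set them apart. Differentiating replicate 2 then weighed 5.11 and differentiating replicate 1 0.298.

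Small values changed sign. Median centring gave -0.0012 for Fap, -0.030 for Prep and -0.0059 for Dpp10, a second quantile normalization gave -0.016 for Dpp10, and averaging probe sets gave 0.0096 for Dpp3. With single arrays left out, Prep ranged from -0.090 to 0.15, Dpp10 from -0.024 to 0.096 (1436087_at, -0.11 to 0.060), Dpp8 at 1428698_at from -0.048 to 0.22, and Dpp4 at 1441342_at from -0.17 to 2.7e-05. Over all probe sets, 424 were called as reported, 1436 with array weights, and from 0 (without differentiating replicate 2, 4129 with an unadjusted p under 0.05) to 1057 (without undifferentiated replicate 2) with single arrays left out. Without differentiating replicate 1 the count was 638, without differentiating replicate 3 it was 3, and without undifferentiated replicate 3 it was 1. The cause of these shifts was not tested.

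Same-numbered arrays deviated from their group means with correlations of 0.21, -0.11 and 0.11, and not every array correlated best with its own number, so the numbers were not taken to pair the samples. With the replicate block Dpp4 at 1459973_x_at had an adjusted p of 0.107 (limma), Slc29a1 one of 0.115 and Ifih1 one of 0.119, 514 probe sets were called in all, and the calls of the other members were unchanged.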

Other observations

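In the RefSeq gene order of mouse chromosome 2, the protein-coding genes next to Dpp4 are Psmd14, Tbr1 and Slc4a10 on one side and Gcg, Fap and Ifih1 on the other. This set was chosen after values had been seen. Ifih1, which encodes the RNA sensor MDA5, was 7.15, 6.33 and 6.27 in differentiating and 4.69, 5.40 and 4.75 in undifferentiated replicates, so that it changed in the direction opposite to Dpp4 (log2 fold change 1.64, SE 0.29, limma adjusted p = 0.0873). Its call was lost without differentiating replicate 2 (adjusted p = 0.311), differentiating replicate 3 (adjusted p = 0.257), undifferentiated replicate 1 (adjusted p = 0.116) or undifferentiated replicate 3 (adjusted p = 0.327), and its adjusted p ranged from 0.00879 to 0.327 over the alternatives. Gcg, which encodes the precursor of glucagon and of the CD26 substrate GLP-1, lies between Dpp4 and Fap and was dim on all arrays (3.01 to 3.28), as was the neuronal factor Tbr1 (2.93 to 3.08). Psmd14, a proteasome subunit gene, was bright, with a log2 fold change of 0.0099 (limma adjusted p = 0.983). The bicarbonate transporter gene Slc4a10 changed little, by -0.12 on the log2 scale (adjusted p = 0.793).

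Ampd3, an AMP deaminase gene, was 8.03, 6.21 and 7.45 in undifferentiated and 5.91, 5.86 and 5.52 in differentiating replicates (log2 fold change -1.47, limma adjusted p = 0.207). Adal, a relative of Ada that acts on modified nucleotides, was 7.98, 7.72 and 8.12 against 7.13, 7.34 and 7.27 (log2 fold change -0.69, adjusted p = 0.106). Both had differentiating arrays wholly below undifferentiated arrays without passing the test, and both were singled out after their values were seen.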
